A study of Arabidopsis thaliana with 6 samples.

Results

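The CLE genes of Arabidopsis thaliana encode small secreted signalling peptides. Taken as every nuclear protein-coding gene whose primary symbol in a RefSeq gene table is CLE and a number, with CLV3 (AT2G27250) added, they were 31 of 27444 such genes, 30 of them CLE-numbered. Each gene was read in a window made of its span and the 500 bp on either side, because the spans are short (median 829 bp, against 2078 bp for all protein-coding genes). A gene was counted as occupied in a library when a peak of that library's list overlapped its window by 1 bp or more. The covered length of a gene is the number of bp of its window that lay under peaks.

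A CLE peptide is cut from the C-terminal end of a precursor protein, leaves the cell and is bound by leucine-rich repeat receptors on neighbouring cells. CLV3 is the founding member: it is made by stem cells of the shoot apex and, through CLV1 and related receptors, limits the homeobox gene WUS. Other members act in the vascular cambium, the phloem, the root tip, the stomatal lineage and the seed, and many are expressed in a few cell types only. Genes with such narrow expression are typical targets of Polycomb repressive complex 2, which methylates lysine 27 of histone H3 and of which SWINGER (SWN) is a catalytic subunit.

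Binding of SWN was mapped by chromatin immunoprecipitation and sequencing in seedlings 14 days old. All plants were swn mutants that carried an SWN-GFP fusion driven by the SWN promoter, which was precipitated with an antibody against GFP. The groups were 2 libraries called SWN-GFP, in which VAL1 and VAL2 were intact, and 2 called SWN-GFP val1 val2, in which these genes for B3-domain DNA-binding repressors were both mutated. The latter genotype is called the double mutant below. The 2 input libraries, 1 of each genotype, were not analysed here. The number of transgenic lines, the alleles and the origin of the replicates were not given in the sources used here, so the spread between replicates may be technical. Whole seedlings were used, so binding in fewer cells and weaker binding per cell cannot be told apart.

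For SWN-GFP 8189 and 8666 peaks were deposited, for the double mutant 9177 and 9618. Read totals are unknown, and a missing peak means only that the peak caller's threshold was not passed. The fold enrichment of a peak is the authors' value at its summit. Its percentile is the rank of that fold within its own list, and folds of different lists were not tested against each other. The median fold was 3.12 and 2.99 in the SWN-GFP lists against 2.94 and 2.83 in the longer lists of the double mutant, so the same fold can rank higher in the latter, and a percentile gives a place within a list and no change.

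Between 45.2% and 64.5% of the CLE genes carried an SWN-GFP peak in each list. With VAL1 and VAL2 intact, 16 of the 31 genes had a peak in replicate 1 and 16 in replicate 2 (51.6% each), where 23.0% and 23.8% of all protein-coding genes did. In the double mutant the count was 14 in replicate 1 (45.2%) and 20 in replicate 2 (64.5%), against 24.6% and 25.8% of all protein-coding genes. The CLE share was the higher one in every list, and the 2 double mutant lists lay further apart (14 and 20) than the 2 SWN-GFP lists.

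Both SWN-GFP lists held a peak at 15 members, or 48.4%, against 20.3% of all protein-coding genes. The background was 22.2% among genes no longer than the longest member (2999 bp) and 22.4% among genes with a symbol of their own. Genes were not matched to the members on length, and the part of length or naming in the CLE share was not tested. Both double mutant lists held one at 13 members (41.9%, background 21.5%), and any of the 4 lists at 21 (67.7%, background 35.3%). A peak in all 4 lists, called kept here, was found at 10 members (32.3%, background 15.0%): CLV3, CLE6, CLE9, CLE10, CLE13, CLE17, CLE26, CLE27, CLE41 and CLE44. Peaks covered 18.9% and 25.6% of the summed CLE windows in SWN-GFP and 18.1% and 23.4% in the double mutant. They covered 5.32% to 5.91% of the windows of all protein-coding genes. For genes no longer than the longest member this was 7.32% to 8.06%.

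**Figure D1:**
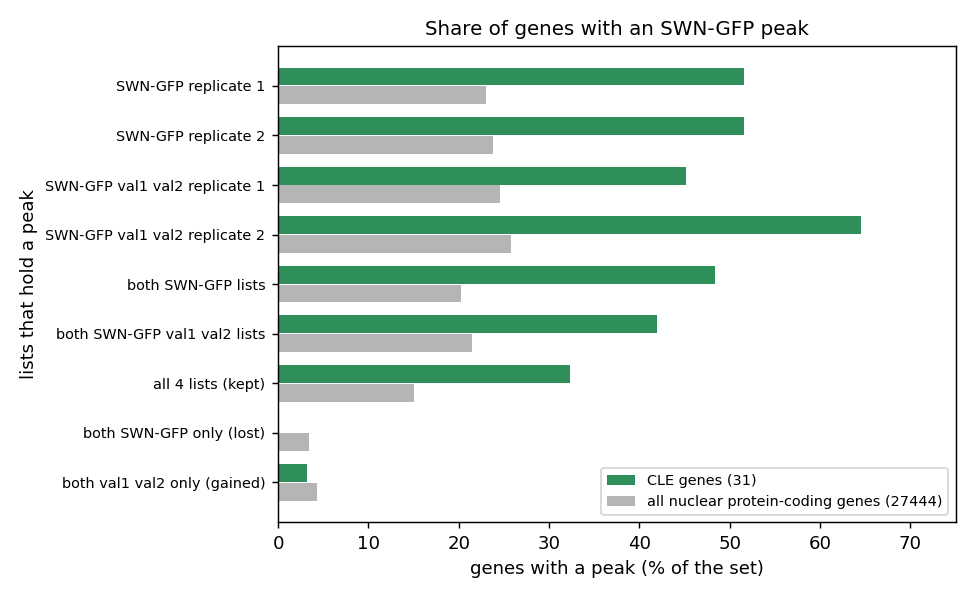
Share of genes with an SWN-GFP peak in the span or the 500 bp on either side, in percent of the 31 CLE genes (green bars) and of all 27444 nuclear protein-coding genes (grey bars), for each list and for combinations of lists. The green bar is the longer one for every single list and for the combinations of both SWN-GFP lists, both SWN-GFP val1 val2 lists and all 4 lists, while no CLE gene was lost and 1 was gained (3.23%).

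No CLE gene was without a peak in both double mutant lists after having one in both SWN-GFP lists. Genes of that kind are called lost, and those of the reverse kind gained. Of all protein-coding genes 3.44% were lost. Of the 15 members occupied in both SWN-GFP lists 0 were lost, against 16.9% of all genes so occupied, and 10 were kept (66.7%, background 73.7%). The other 5, CLE2, CLE11, CLE12, CLE14 and CLE43, had a peak in 1 of the 2 double mutant lists, which is 33.3% against a background of 9.35%. The count of 0 thus rested, at these 5 genes, on a peak in 1 list. Leaving out a list can only raise it, since fewer lists must then agree. Without SWN-GFP val1 val2 replicate 2 the lost members were 4 (CLE2, CLE11, CLE12 and CLE43), or 12.9% of the 31, against 4.6% of all protein-coding genes. Without SWN-GFP val1 val2 replicate 1 there was 1 (CLE14), or 3.23%, against 4.19%. The gained gene was CLE5, 1 of the 31 members (3.23%, background 4.29%). No test was made on these counts, since the genes form 1 chosen family.

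Peaks at CLE genes lay mostly on the genes and ranged from weak to strong within their lists. Of 86 peaks that touched a CLE window, counted over the 4 lists, 66 had the summit inside the gene span, 13 in the flanks and 7 outside the window. The summit lay in another protein-coding gene for 4 of them, all in AT4G13190, whose span shares 492 bp with that of CLE44. The same site can be counted in more than 1 list. Summit places over all protein-coding genes are not given here, so this placement is not compared with theirs. The highest percentile at any member was 95.7. At the kept members the fold of the strongest peak ranged from 2.51 to 8.62, and at the 10 members with a peak in 1 or 3 lists it ranged from 1.91 to 3.82.

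Among the members covered differently in the 2 genotypes, the vascular ligand gene CLE41 stood first by size. The CLE41 and CLE44 genes encode the same mature peptide, the tracheary element differentiation inhibitory factor, which comes from the phloem, keeps cambium cells dividing and is bound by the receptor PXY. At CLE41 (AT3G24770) the covered length was 1555 and 1590 bp in the SWN-GFP lists and 529 and 522 bp in those of the double mutant. The means were 1572.5 ± 24.7 bp and 525.5 ± 4.9 bp (SD, n = 2 each), a ratio of 0.334, and the genotypes did not overlap.

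The SWN-GFP lists held 1 broad peak over CLE41 and the double mutant lists short separate ones. The broad peak ran over chromosome 3 (TAIR10) from 9045019 to 9047347 in the first replicate and from 9044907 to 9047382 in the second, with folds of 7.75 and 7.05. Its summits, at 9045493 and 9045526, lay 800 and 767 bp from the CLE41 span, in no annotated gene. Each double mutant list had instead 2 short peaks on the CLE41 span or its edge, at 9046147 to 9046437 and 9047040 to 9047277 in the first replicate, at 9046197 to 9046476 and 9046805 to 9047046 in the second. Their highest folds were 2.51 and 2.76, at percentiles 25.4 and 46.6, where the SWN-GFP peaks stood at 93.7 and 92.6. No peak of either double mutant list lay at the position of the SWN-GFP summits. With peaks of a fold of at least 4 only, CLE41 was lost. The SWN-GFP folds that passed this limit were read at summits outside the CLE41 window. A separate peak with its summit in the nearby gene AT3G24780 also had lower folds in the double mutant. They were 4.33 and 4.14 in SWN-GFP against 2.95 and 2.60.

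CLE44 (AT4G13195) differed less between the genotypes. Its covered length was 1520 and 1736 bp in SWN-GFP against 1294 and 1445 bp in the double mutant, lower in both double mutant lists but by a smaller step (ratio 0.841). Part of this length came from a second peak with its summit in AT4G13190, 224 and 161 bp in SWN-GFP and 163 and 171 bp in the double mutant. On the gene span alone the covered lengths overlapped, with 875 and 1075 bp against 904 and 833 bp. The folds also overlapped, at 5.33 and 4.31 in SWN-GFP against 4.73 and 4.07 in the double mutant. CLE42 (AT2G34925), which encodes a close relative of that peptide, had 370 bp under a peak in SWN-GFP replicate 1, none in replicate 2, and 441 and 355 bp in the double mutant lists. In the window, CLE41 and CLE44 were therefore both covered less in the double mutant, by steps of different size, while the genotypes overlapped at CLE42.

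CLE9 and CLE10, which encode 1 and the same peptide acting in root xylem files and in the stomatal lineage, had peak folds in opposite orders. At CLE9 (AT1G26600) the fold was 8.49 and 7.62 in SWN-GFP against 3.74 and 4.30 in the double mutant, and the percentile 95.2 and 94.0 and then 72.4 and 81.8. CLE10 (AT1G69320) had folds of 3.77 and 3.33 in SWN-GFP against 5.08 and 4.77 in the double mutant, at percentiles 66.9 and 61.0 and then 86.5 and 85.4. The genotypes did not overlap at either gene.

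Covered length followed the fold at CLE9 in the window but not at CLE10. At CLE9 it was 1124 and 1363 bp in SWN-GFP against 1052 and 738 bp in the double mutant, a mean of 1243.5 ± 169 bp against 895 ± 222 bp (SD, n = 2 each). The lower SWN-GFP value and the higher val1 val2 value lay close to each other, and on the span alone the genotypes overlapped. CLE10 was covered over 1006 and 702 bp and over 845 and 1035 bp, which overlapped. CLE26 (AT1G69970), whose peptide blocks protophloem formation when given to roots, was covered over 854 and 1017 bp and over 715 and 1000 bp. These values overlapped as well, while its folds of 3.83 and 4.06 in SWN-GFP were both above the 2.94 and 3.21 in SWN-GFP val1 val2. CLE45, which acts through BAM3 in the protophloem, had no peak in any list.

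**Figure D2:**
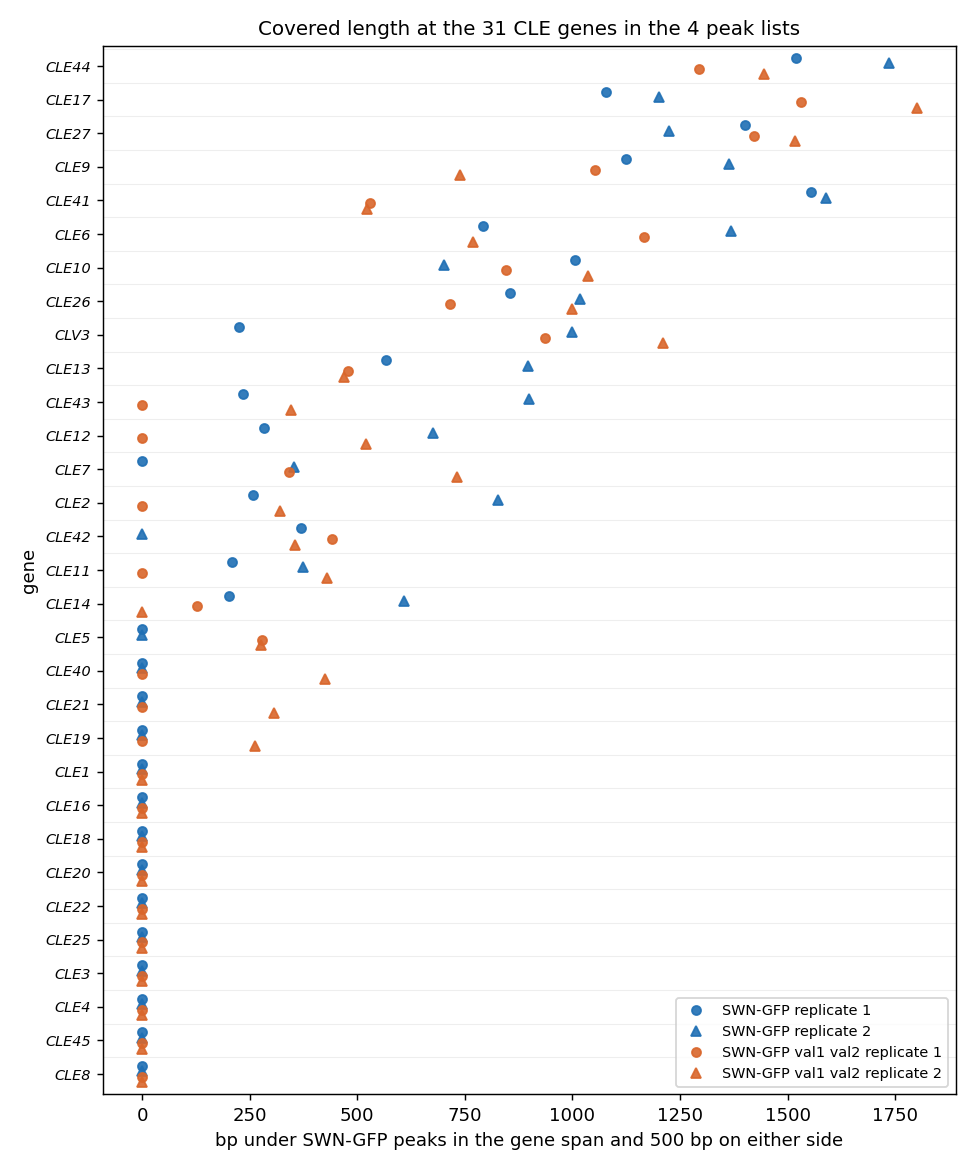
Bp under SWN-GFP peaks in the span and the 500 bp on either side of each of the 31 CLE genes, 1 point per list (blue for SWN-GFP, orange for SWN-GFP val1 val2, circles for replicate 1 and triangles for replicate 2), ordered by the mean over the lists. The blue and orange points of CLE41 lie apart, those of CLE17 lie in the opposite order, and 10 genes are at 0 in all lists.

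Among the members of the shoot meristem, CLV3 carried weak peaks in all 4 lists. Its covered length was 225 and 1000 bp in SWN-GFP against 935 and 1211 bp in the double mutant. The 2 SWN-GFP lists differed from each other by more than the genotype means did (612.5 ± 548 and 1073 ± 195 bp, SD, n = 2 each). Its folds of 2.71 and 2.71, then 2.63 and 2.88, overlapped and stood at percentiles from 30.4 to 52.1.

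CLE17 (AT1G70895), reported to act beside CLV3 in the shoot apex, was the kept member with the largest difference in mean coverage, in bp, towards the double mutant (525 bp); by ratio CLV3 stood higher (1.75), with overlapping genotypes. Peaks covered 1079 and 1202 bp in SWN-GFP against 1531 and 1800 bp in the double mutant, a mean of 1140.5 ± 87.0 bp against 1665.5 ± 190 bp (SD, n = 2 each) and a ratio of 1.46. The genotypes did not overlap, on the span alone either. Folds were 3.48 and 3.95 in SWN-GFP against 7.03 and 6.56 in the double mutant, and the percentiles were 60.5 and 72.4 against 94.3 and 93.6. A single peak was called in each list, at chromosome 1, 26727617 to 26728695 and 26727476 to 26728677 in SWN-GFP and at 26727502 to 26729032 and 26727431 to 26729230 in SWN-GFP val1 val2. Their left ends lay close together and the mutant peaks ran further to the right. CLE16, which is reported to work with CLE17, had no peak in any list. CLE40, which controls stem cells of the root tip through ACR4, had peaks in SWN-GFP val1 val2 replicate 2 only, over 424 bp.

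CLE27 (AT3G25905) had the highest mean fold of all members in both genotypes. The folds were 7.71 and 8.62 in SWN-GFP against 6.95 and 7.04 in the double mutant, and the strongest peak of each list ranked between percentiles 93.6 and 95.7. Its span of 757 bp was wholly under peaks in every list. The covered length of the window was 1401 and 1225 bp in SWN-GFP against 1421 and 1517 bp in the double mutant, higher in both double mutant lists by a ratio of 1.12, but 1401 and 1421 bp are nearly equal. The order of the folds was the opposite of the order of the covered lengths.

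**Figure D3:**
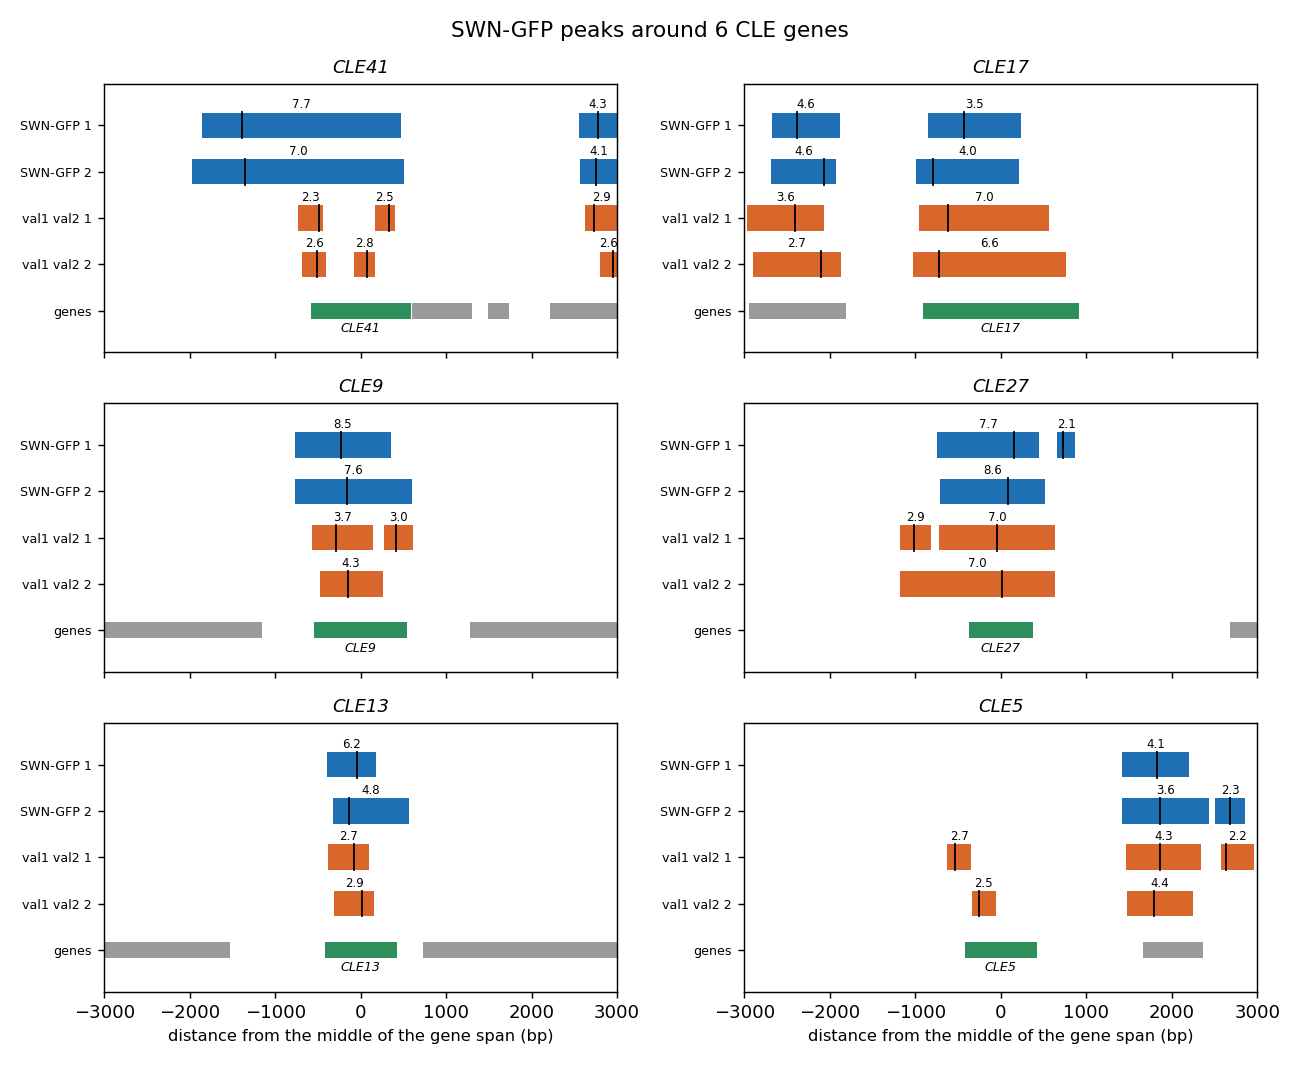
SWN-GFP peaks within 3000 bp of the middle of 6 CLE genes in the 4 lists (blue for SWN-GFP, orange for SWN-GFP val1 val2), with the summit as a black line, the authors' fold above each peak and gene spans below (green for the named gene, grey for others). At CLE41 SWN-GFP has a broad peak and SWN-GFP val1 val2 short ones, at CLE17 the val1 val2 peaks are longer, at CLE27 all lists cover the gene, and the 2 peaks at CLE5 do not overlap each other.

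CLE4, CLE7, CLE5 and CLE6 lie in that order within 16.8 kb of chromosome 2 with no other protein-coding gene between them, yet differed from one another. Peptides of this group have been linked to nitrogen supply in roots (CLE4 and CLE7) and to leaf shape (CLE5 and CLE6). CLE6 (AT2G31085) was covered over 793 and 1368 bp in SWN-GFP against 1167 and 769 bp in the double mutant, which overlapped. Its folds were 4.09 and 3.59 and then 4.33 and 4.38, slightly higher in both double mutant lists.

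CLE5 (AT2G31083), which encodes the same mature peptide as CLE6 and lies 1237 bp from it, had no peak in either SWN-GFP list. It had 278 and 277 bp under a peak in the double mutant lists, with folds of 2.71 and 2.48 at percentiles 38.7 and 29.7. On chromosome 2 the peak of the first replicate lay at 13251867 to 13252144 and that of the second at 13252157 to 13252433. They did not overlap each other, so the call of a gain at CLE5 joins 2 weak peaks at different positions. CLE7 (AT2G31082) had none in SWN-GFP replicate 1, 353 bp in replicate 2, and 342 and 731 bp in the double mutant lists. CLE4 had no peak within its window in any list.

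CLE13 (AT1G73965) had, like CLE41 and CLE9, less coverage and a lower fold in both double mutant lists. The covered length was 566 and 897 bp in SWN-GFP against 478 and 470 bp in the double mutant, a mean of 731.5 ± 234 bp against 474 ± 5.7 bp (SD, n = 2 each). Folds were 6.20 and 4.84 in SWN-GFP against 2.71 and 2.86 in the double mutant, and the percentiles 89.1 and 82.3 and then 38.9 and 51.6. The 4 summits all lay inside the span, between 27815914 and 27816060 on chromosome 1.

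CLE14 (AT1G63245), which acts in the response of the root tip to low phosphate and in leaf senescence, was covered over 203 and 608 bp in SWN-GFP. In the double mutant it had 127 bp in replicate 1 and none in replicate 2. The 127 bp came from the edge of a peak whose summit lay 692 bp from the span. On the span alone no double mutant list covered CLE14, and there it was lost.

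The remaining members occupied in both SWN-GFP lists had weak peaks that were missing from SWN-GFP val1 val2 replicate 1 and present in replicate 2. CLE2 (AT4G18510), a relative of the nitrogen-linked members, was covered over 257 and 826 bp in SWN-GFP and over 320 bp in the mutant list. CLE11 was covered over 208 and 374 bp and then 429 bp, CLE12 over 284 and 675 bp and then 520 bp, and CLE43 over 234 and 900 bp and then 346 bp. Their folds lay between 1.91 and 3.19. CLE19, linked to embryo and pollen development, and CLE21 had a peak in SWN-GFP val1 val2 replicate 2 only, over 263 and 306 bp. Of the 10 members with a peak in 1 or 3 lists, replicate 2 of the double mutant, the longest list, held 9.

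No list had a peak in the window of 10 of the 31 members (32.3%). They were CLE1, CLE3, CLE4, CLE8, CLE16, CLE18, CLE20, CLE22, CLE25 and CLE45. Among them CLE8 acts in the early embryo and endosperm, CLE25 in signalling of water shortage from root to leaf, and CLE1, CLE3 and CLE4 in the response of roots to nitrogen. These genes were shorter, with a median span of 663 bp against 842 bp for the 21 members with a peak in any list, but CLE25 (1921 bp) and CLE16 (1323 bp) were among the longer members of the family.

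Of the 21 members occupied anywhere, 5 had a smaller covered length in each double mutant list than in each SWN-GFP list (CLE9, CLE13, CLE14, CLE41 and CLE44; 23.8%, against 25.6% of all protein-coding genes occupied anywhere). The members covered more were 3 (CLE5, CLE17 and CLE27; 14.3%, background 31.1%). With all peaks used, the first share is near that of all genes and the second below it. Both stood above all genes when weaker peaks were dropped. At a fold limit of 4, 4 of 9 occupied members were covered less (44.4%, all genes 29.2%). There 3 were covered more (33.3%, all genes 25.9%). With the strongest 2000 peaks of each list, 4 of 8 were covered less (50%, all genes 27.6%). The other 4 were covered more (50%, all genes 28.6%). These sets are small and the differences were not tested. With all peaks used, leaving out a list can only add genes to either count, since fewer lists must then be in order. The shares over all genes rose too. The members covered less were 10 without SWN-GFP replicate 1 (47.6% of those occupied, where the share over all genes was 37.5%) and 10 without SWN-GFP val1 val2 replicate 2 (55.6%, all genes 33.8%). The members covered more were 10 without SWN-GFP val1 val2 replicate 1 (47.6%, all genes 48.4%).

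By fold, 5 of the 10 kept members were lower in both double mutant lists (CLE9, CLE13, CLE26, CLE27 and CLE41; 38.9% of all kept genes were lower) and 3 were higher (CLE6, CLE10 and CLE17; 28.9% of all kept genes were higher). CLV3 and CLE44 overlapped. The percentiles of CLE27 overlapped between the genotypes although its folds did not. The median fold of the whole lists was also lower in the double mutant (2.94 and 2.83, against 3.12 and 2.99 in SWN-GFP).

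**Figure D4:**
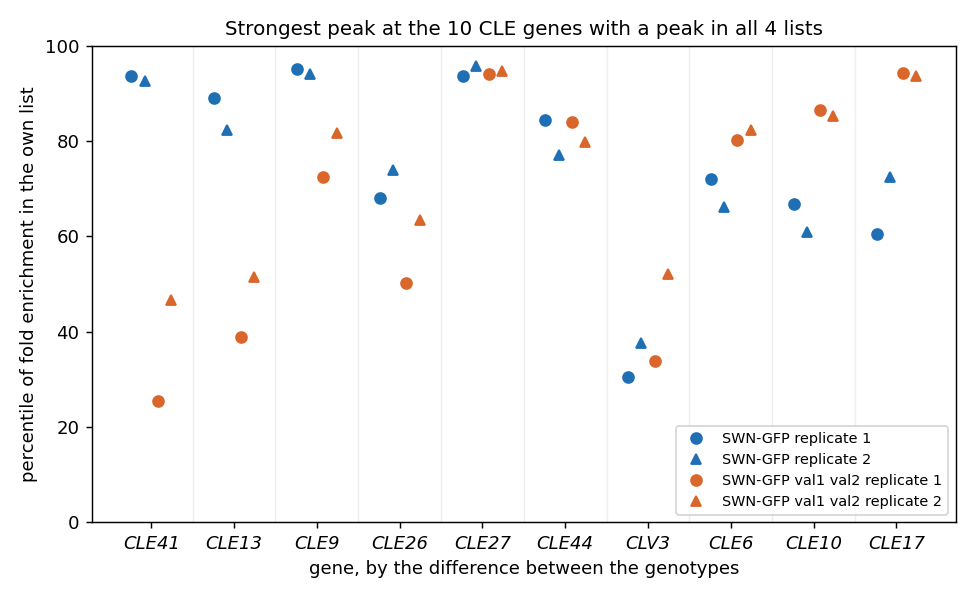
Percentile of the fold enrichment of the strongest peak within its own list, for the 10 CLE genes with a peak in all 4 lists, 1 point per list (blue for SWN-GFP, orange for SWN-GFP val1 val2, circles for replicate 1 and triangles for replicate 2), ordered by the difference between the genotypes. CLE41 stands at 93.7 and 92.6 in SWN-GFP and at 25.4 and 46.6 in the double mutant, CLE17 at 60.5 and 72.4 and then at 94.3 and 93.6, and CLE27 stays between 93.6 and 95.7.

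Summed over the 31 genes, peaks covered 11.7 and 15.8 kb in SWN-GFP against 11.2 and 14.5 kb in the double mutant. The means were 13.8 ± 2.9 kb and 12.8 ± 2.3 kb (SD, n = 2 each), a difference of -6.84% (exact two-sided permutation p = 0.667, where the smallest possible p is 0.333). The difference of -0.941 kb was smaller in size than the gap between replicates of either genotype. Its sign was reversed without CLE41 (12.2 ± 2.9 kb and 12.3 ± 2.4 kb), and likewise without SWN-GFP replicate 2 (difference of 1137.5 bp) or without SWN-GFP val1 val2 replicate 1 (720.5 bp). Over all protein-coding genes the sum differed by 4.45%, higher in the double mutant (exact permutation p = 0.667).

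Genes for the receptors and for downstream steps of CLE signalling, pooled, were occupied in both SWN-GFP lists at a share near that of all genes. The difference from the ligand genes was not tested. Of 18 such genes, 4 were occupied in both SWN-GFP lists (22.2%, background 20.3%) and 7 in both double mutant lists (38.9%, background 21.5%). The 4 were the homeobox genes WUS, WOX4 and WOX5 and a single receptor gene, RPK2. The pooled share therefore does not describe the receptor genes alone. The receptor genes CLV1, BAM1, BAM2, BAM3, PXL1, PXL2 and ACR4, the phosphatase genes POL and PLL1 and the homeobox gene WOX14 had no peak in any list.

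PXY, the receptor of the CLE41 and CLE44 peptide, was gained: it had no peak in SWN-GFP against 730 and 380 bp in the double mutant, with folds of 3.04 and 2.92. HSL1, a receptor of the CLE9 and CLE10 peptide, was also gained, with 407 and 330 bp and folds of 2.99 and 2.29. PXY and HSL1 were the 2 gained genes of the 18 (background 4.29%), and none was lost (background 3.44%). WOX4, a homeobox gene that acts below PXY in the cambium, was covered over 1694 and 985 bp in SWN-GFP against over 663 and 556 bp in the double mutant, and these did not overlap. WUS was covered over 1286 and 2157 bp and over 2791 and 2577 bp, the opposite order.

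CRN, a partner of CLV2, had none and 266 bp in SWN-GFP against 459 and 559 bp in the double mutant. CLV2 itself was touched over 8 bp in SWN-GFP replicate 1 and over 438 and 11 bp in the double mutant lists. RPK2, another receptor for CLV3, had 319 and 240 bp and then none and 229 bp. WOX5, which marks the root stem cell niche, had 401 and 679 bp and then 399 and 252 bp.

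**Figure D5:**
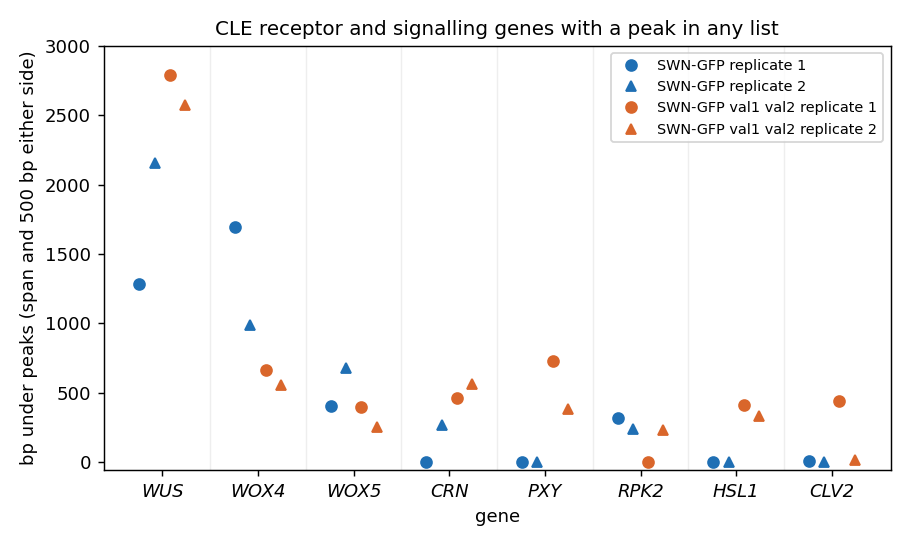
Bp under SWN-GFP peaks in the span and the 500 bp on either side of the 8 CLE receptor and signalling genes with a peak in any list, 1 point per list (blue for SWN-GFP, orange for SWN-GFP val1 val2, circles for replicate 1 and triangles for replicate 2). PXY and HSL1 are at 0 in both SWN-GFP lists, and the orange points of WUS lie above and those of WOX4 below the blue ones.

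Other families of secreted peptides gave other counts. Of the 34 RALF genes, which encode rapid alkalinization factors that act in cell expansion, 3 were occupied in both SWN-GFP lists (8.82%, background 20.3%) and 6 in both double mutant lists (17.6%, background 21.5%). RALF1, RALFL4 and RALFL8 were gained, 3 of the 34 (background 4.29%), and none was lost (background 3.44%). At RALFL8 a peak covered only 46 bp of the window in SWN-GFP val1 val2 replicate 1, against 257 bp in replicate 2. Of the 9 RGF genes, which encode root meristem growth factors, 2 were occupied in both SWN-GFP lists (22.2%, near the background) and 4 in both double mutant lists (44.4%). RGF3 and RGF8 were gained, 2 of the 9 (background 4.29%), and none was lost (background 3.44%). Of the 2 EPF genes, which act in stomatal patterning, EPF1 was kept. Among these families of 9 or more genes the CLE genes had the highest share in both SWN-GFP lists (48.4%), while in both double mutant lists the RGF share of 44.4% was above the CLE share of 41.9%. These differences between families were not tested.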

How the data were processed

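Per the submitters' processing notes, Bowtie2, SAMtools, Picard and MACS2 were used on TAIR10. Versions, settings and control libraries were not given in the sources used here. Each immunoprecipitated library had its own list without a header, read in MACS2 column order. The deposited pileup is a signal, the number of fragments over the summit. The deposited −log10 p and −log10 q are the peak caller's, and the lowest −log10 q was 1.31 to 1.33. The deposited fold enrichment is a ratio at the summit over the local background. The peak length deposited by the authors is in bp, under no other unit. Depth is unknown, so no counting interval is given.

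Gene spans came from a RefSeq table of assembly TAIR10.1, used without printing its coordinates. It has no strand. Covered bp, classes and within-list percentiles of fold were computed with Python 3.11.15, pandas 2.3.3 and numpy, and checked on planted peaks. The summed covered length was compared by an exact permutation test over libraries. Shares are set beside all 27444 nuclear protein-coding genes.

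The members, lists and rules were chosen with earlier results of these data known. Values in each list are given for members lost, gained, covered less or more, and the 5 with the highest fold per genotype. SKM1 was dropped from 19 pathway genes because the table does not pair its locus tag with that name. Promoter motifs and peptide sequences were not analysed here.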

Additional observations from a re-analysis of the deposited data

How the results depend on the processing

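With peaks of a fold of at least 4, the members occupied in both SWN-GFP lists were 5, those in both val1 val2 lists 5, and 2 were kept, 2 lost (CLE13 and CLE41) and 2 gained (CLE10 and CLE17). The shares of members were 16.1% for the occupied and 6.45% for each of the other classes, and those of all protein-coding genes 8.2%, 7.09%, 4.85%, 2.51% and 1.56%. With the strongest 2000 peaks of each list these counts were 5, 5, 2, 2 and 3, with CLE6 as the added gain (shares of all genes 7.11%, 6.82%, 4.33%, 2.10% and 1.83%), and the difference in summed covered bp became 248. On the gene span alone 1 member was lost (CLE14, 3.23%, all genes 2.7%). There 3 were covered less (14.3% of those occupied anywhere, all genes 24.9%). With 1000 bp on either side 5 were covered more (21.7%, all genes 32%), and the 1 gain was CLE4 in place of CLE5 (3.23%, all genes 4.89%). Lists of equal length and a minimum of 100 bp gave the same counts of occupied, kept, lost and gained members. With lists of equal length, however, the difference in summed covered bp was -1851.5 and 6 members were covered less (30%, all genes 27.6%). Without CLE41, a setting chosen after seeing the data, the difference in summed covered bp was 106.

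With each library left out in turn, 15 to 16 members were occupied in SWN-GFP, 13 to 20 in SWN-GFP val1 val2, 11 to 14 kept, 0 to 4 lost, 1 to 4 gained, 5 to 10 covered less and 4 to 10 covered more. The shares of all genes were 20.3% to 23.8%, 21.5% to 25.8%, 15.7% to 16.3%, 4.19% to 5.08%, 5.20% to 6.95% and, of genes occupied anywhere, 30.5% to 37.5% and 36.5% to 48.4%. The difference in summed covered bp ranged from -3019.5 to 1137.5. A rule applied without 1 library is met more easily, since fewer lists have to agree, and the part of this in these changes was not tested. With the replicate block, pairing libraries by number, the difference of -941 bp gave an exact sign-flip permutation p of 0.5, the smallest that 2 pairs allow; the labels do not say that the numbers pair libraries. Depth is unknown, so its part in these calls was not tested.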
